A study of Rattus norvegicus with 6 samples.

Results

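miR-199a and miR-214 are microRNAs (miRNAs) of mesenchymal cells. Their 4 arms on the array are rno-miR-199a-5p, rno-miR-199a-3p, rno-miR-214-5p and rno-miR-214-3p (rno for rat, left out from here on). These arms were followed here in rat skeletal muscle cell cultures kept in differentiation medium, with and without interleukin-8 (IL-8). They were taken by name from the non-control spots of the arrays and make up 4 of the 719 rat miRNAs measured. A miRNA is a short RNA that guides silencing proteins to messenger RNAs, mostly through its seed, bases 2 to 8 from the 5′ end. It is cut from the 5p or the 3p side of a hairpin, and the 2 arms of a hairpin can accumulate to very different levels. In mouse and human the precursors miR-199a-2 and miR-214 are carried by 1 long non-coding RNA transcribed antisense to the dynamin gene Dnm3. The mesenchymal factor Twist1 activates this RNA in mouse. The array probes match mature arms and do not show from which precursor an arm was cut.

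The study compared rat primary skeletal muscle cells (RSkMC) that received 1 ng/ml of the neutrophil-attracting chemokine IL-8 (3 samples) with untreated control cells (3 samples). The cells of all 6 samples came from limb muscle of newborn rats through a commercial cell bank. They spent 11 days in medium with 2% horse serum, which is used to induce myogenic differentiation. One protocol text mentions IL-8 for every sample although 3 titles name untreated controls, and groups were taken from the titles. Total RNA was labelled with Cy3 and hybridised to 1 Agilent miRNA array per sample.

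The IL-8 arrays had 168 to 180 miRNAs well above background, and the control arrays had 154 to 164. The 75th percentile of the detected probes ran from 540 to 569 signal units on IL-8 arrays and from 440 to 497 on control arrays, without overlap. The IL-8 arrays shared one slide and the control arrays a different one, and effects of slide and of IL-8 cannot be told apart. The labels do not state whether replicates are separate cultures; the error behind each p-value is the spread of these samples and may be technical. Of the 7 markers of striated muscle checked (arms of miR-1, miR-133, miR-206, miR-208 and miR-499), 0 were well above background on any array. The summed signal of their probes ran from -78.8 to -18.2 in IL-8 and from -74.7 to -60.0 in control arrays. The 3 miRNAs checked beside the members as fibroblast and smooth muscle markers, miR-143-3p, miR-145-5p and miR-21-5p, were all detected. Their detection does not by itself identify a cell type. None of the 6 blood, 2 endothelial and 7 epithelial markers was well above background on any array. In such bulk RNA, fewer cells of a type and less RNA per cell cannot be told apart.

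The mature sequences, taken from RefSeq (rat build GRCr8) and matched for 4 of the 4 members, are shown because the seeds differ between all arms and because the array probes cover different stretches of them. Capitals mark the seed, and all are on the plus strand of chromosome 13.
miR-199a-5p, chr13:77116255-77116277: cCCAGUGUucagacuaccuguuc
miR-199a-3p, chr13:77116294-77116315: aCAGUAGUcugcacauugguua
miR-214-5p, chr13:77121656-77121672: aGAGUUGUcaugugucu
miR-214-3p, chr13:77121713-77121733: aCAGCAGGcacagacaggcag
The hairpins are neighbours: 5340 bases separate the last base of miR-199a-3p from the first of miR-214-5p. In the RefSeq gene table both miRNA genes, Mir199a2 and Mir214, overlap Dnm3. Exon and intron boundaries at these positions were not used here. None of the other mature rat miRNAs in the RefSeq table of 693 shares the seed of a member; 651 of the 719 miRNAs on the array were matched to that table, and the seeds of the others were not checked.

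Each arm is read by a longer and a shorter probe, 10 spots each, and the shorter lies wholly within the longer. The probes of miR-199a-5p, which are shown because they differed most in brightness, are these.
Longer probe, bases 5 to 23 of the miRNA: gaacaggtagtctgaacac
Shorter probe, bases 6 to 23 of the miRNA: gaacaggtagtctgaaca
For miR-199a-3p the probes cover bases 3 to 22 and 4 to 22. For miR-214-3p they cover only bases 7 to 21 and 8 to 21, so 2 and 1 of the 7 seed bases are read. The array files place the longer miR-214-3p probe at chr13:77916262-77916275 and the longer miR-214-5p probe at chr13:77916199-77916214 in rn4, the build of the array design, and list the miR-199a probes as unmapped. Coordinates of the 2 builds are not comparable.

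miR-214-5p was not detected on any array. Its longer probe gave signals of 0.937, -1.33 and -2.34 on the IL-8 arrays, against -2.11, -2.46 and -0.810 on the control arrays. The shorter probe ran from -0.275 to 1.05 with IL-8 and from -1.56 to 0.875 in control. For scale, the dimmest probe that counted as detected read 12.3 to 15.6 with IL-8 and 16.0 to 17.1 in control. Of the 120 miR-214-5p spots over the 6 arrays, 0 exceeded the 95th percentile of the 434 negative control spots of the same array. No change of this arm could be measured, and none was tested.

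What the miR-214-5p probes can read follows from where the annotated arm lies in its hairpin, which is printed here with both annotated arms in capitals (RefSeq, GRCr8, plus strand, chr13:77121645-77121752).
miR-214 hairpin: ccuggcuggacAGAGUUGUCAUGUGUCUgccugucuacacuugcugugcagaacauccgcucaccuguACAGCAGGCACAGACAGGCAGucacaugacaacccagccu
In the minimum free energy fold of these 108 bases, computed with RNAfold (-67.5 kcal/mol), 18 of the 21 bases of miR-214-3p were paired, with partners between bases 27 and 47. The annotated 5p arm covers bases 12 to 28, and 2 of these 18 pairs fell within it. Most of the stretch opposite the 3p arm, shown here because the miR-214-5p probes read only its first bases, thus lies between the annotated arms.
Bases 27 to 47: cugccugucuacacuugcugu
The undetected signal therefore concerns bases 12 to 28 of the hairpin. A neighbouring miRNA, miR-3120, is annotated on the opposite strand over bases 28 to 48 of the same hairpin. Its 2 probes were well above background on 0 of the 6 arrays, with signals from -5.80 to -1.72. It lies outside the rule for naming miRNAs and was looked up after the fold had been seen.

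**Figure D1:**
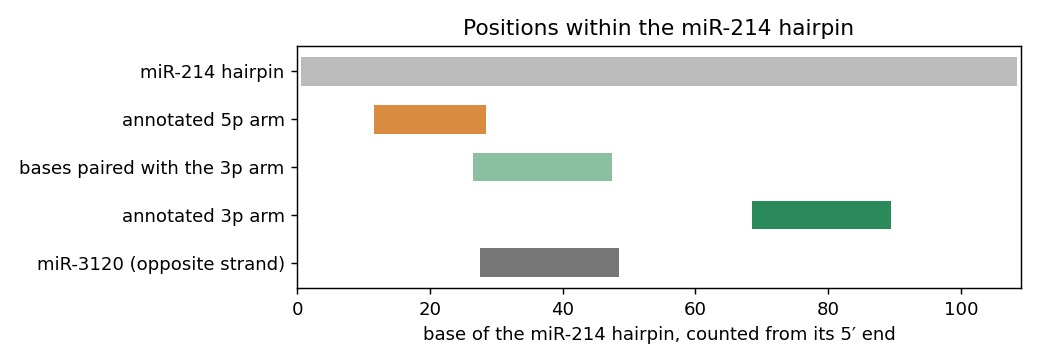
Positions of annotated features along the 108 bases of the miR-214 hairpin (x axis, base counted from the 5′ end), one bar per feature. The annotated 5p arm (bases 12 to 28) meets the stretch paired with the 3p arm (bases 27 to 47) only at its end, and miR-3120 lies over that stretch on the opposite strand.

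miR-199a-5p, which represses caveolin-1 in fibroblasts and is studied as a profibrotic miRNA, was bright on all 6 arrays. Its longer probe gave 4011, 3963 and 4023 signal units with IL-8, against 3106, 3490 and 4159 in control. The IL-8 arrays lay close together and inside the range of the control arrays, of which replicate 1 was lowest and replicate 3 highest. On the scaled log2 scale used for the test, where 0 is the array's 75th percentile over detected probes, miR-199a-5p stood at 1.77, 1.83 and 1.85 with IL-8, against 1.68, 1.79 and 1.96 in control. The groups overlapped. The mean was 1.82 ± 0.038 with IL-8 and 1.81 ± 0.14 in control (SD, n = 3 each), a log2 change of 0.0078 ± 0.076 (SE), or 1.01-fold with a 95% confidence interval (CI) of 0.888 to 1.14 (limma adjusted p = 0.973).

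miR-199a-3p, described to repress mTOR and, in mouse myoblasts, insulin-like growth factor signalling, was also bright on all 6 arrays. Its longer probe gave 5453, 5348 and 5452 units with IL-8, against 4144, 4650 and 5565 in control. Scaled levels were 2.90, 2.93 and 2.96 with IL-8, against 2.84, 2.90 and 3.11 in control. Again the IL-8 values fell inside the control range. The mean was 2.93 ± 0.029 with IL-8 and 2.95 ± 0.14 in control (SD, n = 3 each), a fold of 0.984 (95% CI 0.869 to 1.11, limma adjusted p = 0.926).

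miR-214-3p, which in mouse myoblasts represses the Polycomb methyltransferase Ezh2 during differentiation, gave 1897, 1886 and 1949 units at its longer probe with IL-8, against 1528, 1617 and 1823 in control. Its unscaled IL-8 signals lay above all control signals, as did those of the shorter miR-199a-5p probe (935 to 961 with IL-8, 642 to 894 in control). After scaling the groups overlapped: levels were 1.63, 1.67 and 1.72 with IL-8, against 1.67, 1.66 and 1.77 in control. The mean was 1.67 ± 0.048 with IL-8 and 1.70 ± 0.058 in control (SD, n = 3 each), a fold of 0.983 (95% CI 0.899 to 1.08, limma adjusted p = 0.870).

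**Figure D2:**
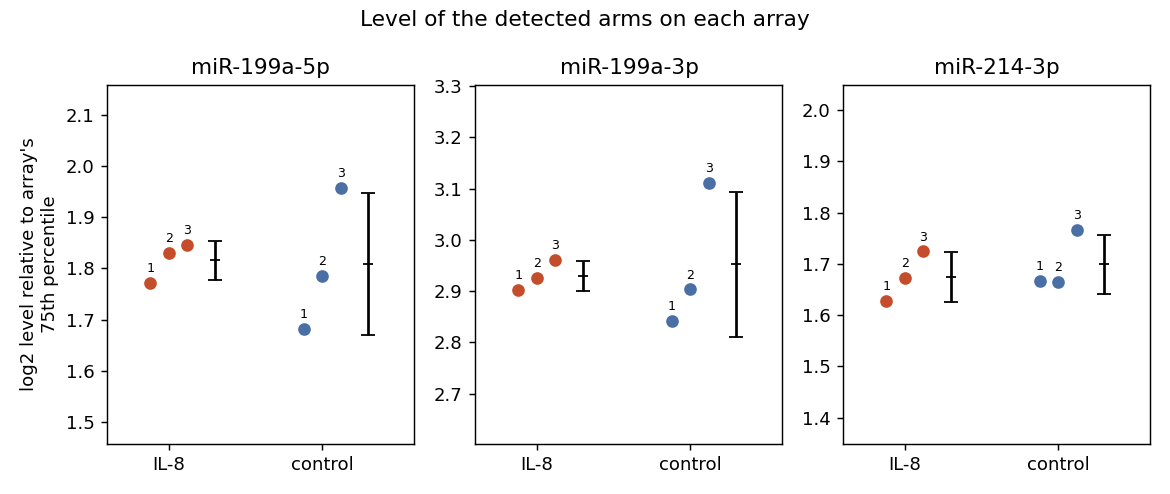
Scaled log2 level (y axis, relative to the array's 75th percentile over detected probes) of the 3 detected arms on each array. Points are arrays with their replicate number, and bars are the mean ± SD of 3 arrays; IL-8 and control overlap for every arm shown, and control replicate 3 is the highest array in each panel.

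Of the 3 arms that passed the filter on dim probes, limma called 0 at an adjusted p under 0.05, and 0 had an unadjusted p under 0.05. Over all 167 tested miRNAs 10 (5.99%) were called, 5 higher (2.99%) and 5 lower (2.99%), and 24.6% had an unadjusted p under 0.05. Likewise, 0 of the 3 arms had groups without overlap, against 29.9% of all tested miRNAs. The intervals show what the arrays could resolve: a rise of any of these arms above 1.14-fold or a fall below 0.869-fold lies outside its 95% CI with this scaling. Across all tested miRNAs the log2 changes had a median of 0.016, and the 3 members stood at 0.0078, -0.023 and -0.024; the mean was lower with IL-8 for 43.7% of all tested miRNAs.

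The sign of these small values depended on the scaling between arrays. Without it, all 3 arms were higher with IL-8, with log2 changes of 0.24 for miR-199a-5p, 0.21 for miR-199a-3p and 0.21 for miR-214-3p (limma adjusted p = 0.0978, 0.135 and 0.0939), and the median of all tested miRNAs was itself at 0.24. Scaled to the spike-in control RNAs they stood at 0.21, 0.18 and 0.18, against a median of 0.21. In both settings the arms thus lay close to the median of the other miRNAs. The median, quantile and all-probe percentile scalings gave values between -0.12 and 0.020, and none of the 19 alternatives called any of the 3 arms. With the all-probe percentile the SE of each arm was 0.21 and 0 miRNAs of the series were called, so that setting could hardly call an arm. Of single arrays, control replicate 3 mattered most: without it the log2 changes were 0.087, 0.061 and 0.014.

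**Figure D3:**
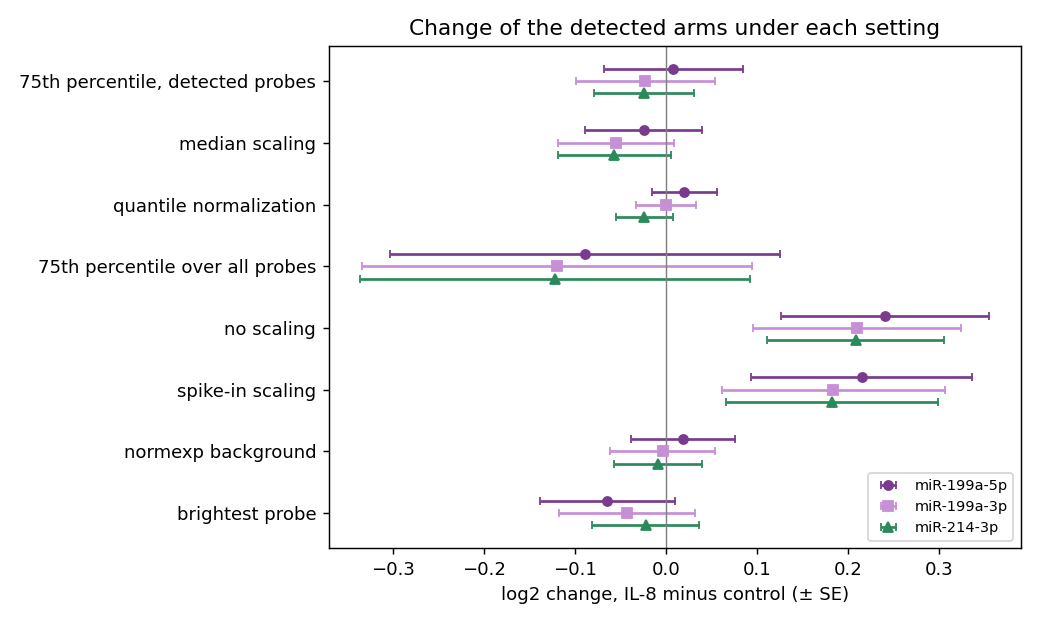
Log2 change of the 3 detected arms, IL-8 minus control (x axis, ± SE from limma), under 8 settings (y axis). Values lie between -0.12 and 0.020 except without scaling or with spike-in scaling (0.18 to 0.24), where the median of all tested miRNAs was 0.24 and 0.21.

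The arm ratio asks whether IL-8 altered how the arms of a hairpin accumulate, and it does not depend on scaling by a constant. Since each arm has its own probes, only its change between arrays can be read, not its level. For miR-199a the log2 ratio of 3p over 5p signal was 1.13, 1.10 and 1.12 with IL-8, against 1.16, 1.12 and 1.15 in control. The values overlapped, and the 6 arrays lay within a narrow band. The mean was 1.11 ± 0.017 with IL-8 and 1.14 ± 0.023 in control (SD, n = 3 each), a change of -0.031 or 0.979-fold (95% CI 0.914 to 1.05). limma over the 19 hairpins with both arms tested gave an adjusted p of 0.586, and the exact two-sided permutation test over the arrays gave p = 0.2, where 0.1 is the smallest it allows. Among all 19 hairpins limma called 0 (0%), with 3 (15.8%) at an unadjusted p under 0.05, and 26.3% had groups without overlap.

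For miR-214 no arm ratio was formed, because the 5p arm was not well above background.

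The arms of miR-199a moved together from array to array. Their levels spanned 0.27 log2 units each among the control arrays, while their ratio spanned 0.042. Within groups the ratio had a pooled SD of 0.020, the lowest of the 19 hairpins, whose median was 0.12. This was also the brightest pair: its dimmer arm averaged 2325 signal units, against at most 123 for the dimmer arm of any other pair, and the part of brightness in the narrow spread was not tested. As a measure of likeness, each miRNA was centred on its mean over the 6 arrays and the root mean square (RMS) difference was taken. By this measure the arm most like miR-199a-5p among the other 166 tested miRNAs was miR-199a-3p, and the reverse held too, at 0.023 log2 units. The median over all others was 0.10 for miR-199a-5p and 0.11 for miR-199a-3p. miR-376b-5p (0.028) and miR-106b-5p (0.030) came next for miR-199a-5p, and miR-219a-5p (0.041) and miR-376b-5p (0.042) for miR-199a-3p. The level of miR-376b-5p was at the floor on control replicate 1, so its likeness is uncertain. miR-219a-5p was dim too, at log2 levels of -4.69 to -4.29 against a floor of -5.03. Its log2 change moved from -0.018 to -0.068 when only probes detected on all 6 arrays were kept, so its likeness depends on the probes used.

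miR-214-3p, from the neighbouring hairpin, followed the miR-199a arms less closely. Since the probes do not show from which precursor an arm was cut, the miR-199a signal need not come from the neighbouring hairpin alone. It ranked 11th in likeness to miR-199a-3p (RMS difference 0.051) and 22nd to miR-199a-5p (0.055). Its own nearest miRNAs were miR-23a-3p (0.024), miR-10b-5p (0.028) and miR-186-5p (0.028). Among control arrays the level of miR-214-3p spanned 0.10 log2 units, against 0.27 for each miR-199a arm. The log2 ratio of miR-214-3p over miR-199a-3p signal was -1.27, -1.25 and -1.24 with IL-8, against -1.17, -1.24 and -1.35 in control. The IL-8 arrays lay within the wider control range. The mean was -1.25 ± 0.019 with IL-8 and -1.25 ± 0.086 in control (SD, n = 3 each), a change of -0.0014 (exact two-sided permutation test, p = 1). Against miR-199a-5p the change was -0.032 (exact p = 0.7). Both ratios thus differed by less than the spread between the control arrays.

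**Figure D4:**
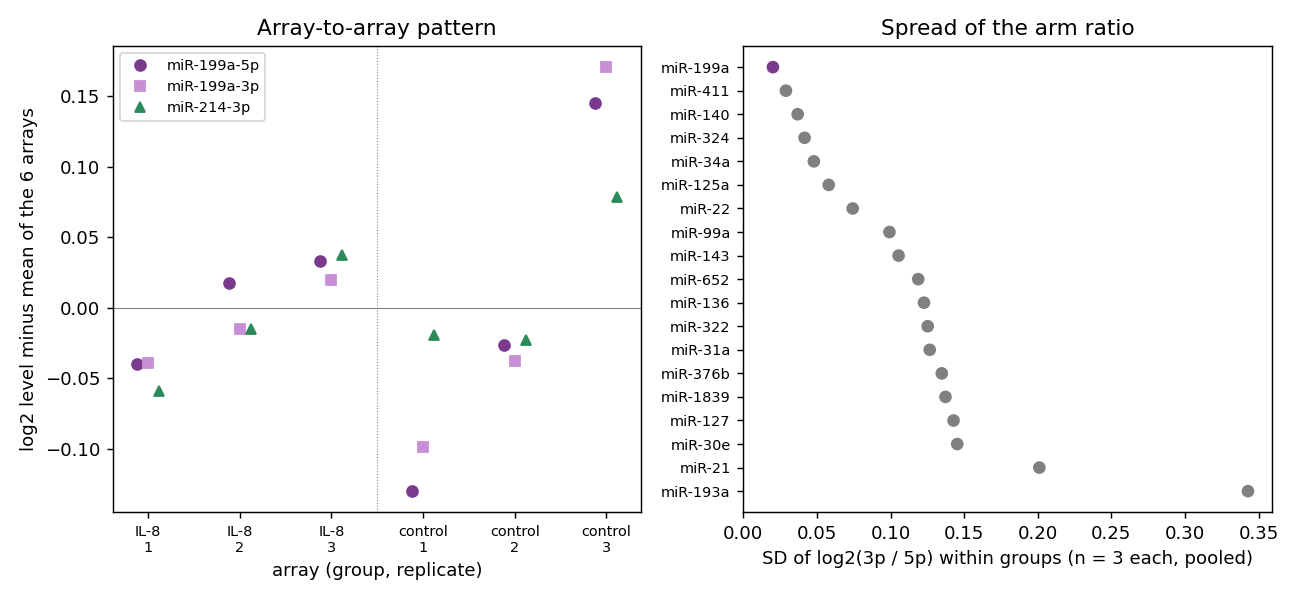
Left, log2 level of each detected arm minus its mean over the 6 arrays (y axis) for every array (x axis): the miR-199a arms move together, with miR-214-3p closer to 0 on control replicates 1 and 3. Right, pooled SD within groups of the log2 3p over 5p ratio (x axis) for the 19 hairpins with both arms tested (y axis); miR-199a, in purple, is lowest at 0.020.

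The nested probes of an arm give a further view of the same molecule. For miR-199a-5p the longer probe was 4.26, 4.12 and 4.30 times as bright as the shorter with IL-8, against 4.84, 4.54 and 4.65 times in control, without overlap, as for 20.6% of the 131 miRNAs with probes of unequal length. The log2 changes of the single probes accordingly differed in sign, at -0.065 ± 0.074 (SE) for the longer and 0.080 ± 0.082 (SE) for the shorter, and neither passed limma (adjusted p = 0.683 and 0.651). For miR-199a-3p the ratio was 1.64, 1.64 and 1.68 with IL-8, against 1.72, 1.71 and 1.68 in control. For miR-214-3p it was 1.16, 1.16 and 1.19 with IL-8, against 1.19, 1.15 and 1.16 in control. These groups overlapped. Fitted over these 131 miRNAs, a comparison chosen after these values had been seen, the probe ratio of miR-199a-5p had a log2 change of -0.14 (95% CI -0.23 to -0.064, limma adjusted p = 0.128), and 0 of the 131 passed (0%), with 19 at an unadjusted p under 0.05. Across these 131 the ratio was lower with IL-8 in 76.3%, with a median change of -0.035. Slide moves with group here, and its part in the shift cannot be told apart from that of IL-8. The spots of a probe varied by 1.13% to 13.9% (SD over mean) for the detected arms.

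**Figure D5:**
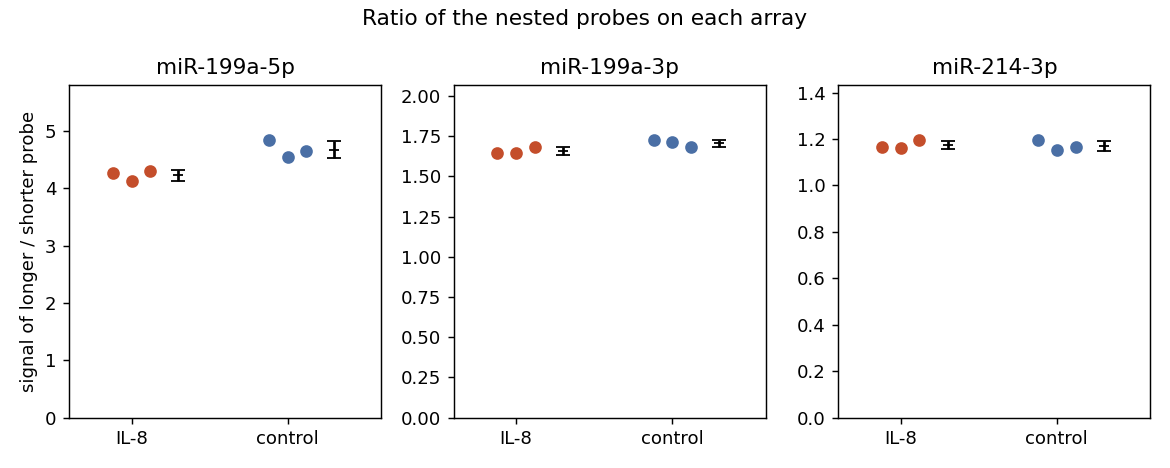
Signal of the longer over the shorter probe (y axis, a ratio without unit) on each array for the 3 detected arms. Points are arrays and bars the mean ± SD of 3 arrays; the groups do not overlap for miR-199a-5p (4.12 to 4.30 with IL-8, 4.54 to 4.84 in control), as for 20.6% of the 131 probe pairs, and overlap for the other arms.

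Other miRNAs of related roles were read from lists. Of 6 further arms listed for fibroblasts and smooth muscle (miR-143, miR-145 and miR-21), 5 were tested and 0 passed in either direction, with a median log2 change of -0.059. miR-145-5p, which sustains the contractile state of smooth muscle, had the smallest p, at -0.083 ± 0.064 (SE, limma adjusted p = 0.499). Of 8 miRNAs described in fibrosis, 7 were on the array, 5 were tested and 0 passed, with a median of 0.021. The smallest p there was that of miR-29b-3p, which targets collagen messenger RNAs, at 0.22 ± 0.13 (SE, limma adjusted p = 0.401). Of 6 other miRNAs described to repress Ezh2, as miR-214-3p does, 5 were tested, 0 passed, and the median was 0.097. miR-26a-5p led this list at 0.13 ± 0.056 (SE, limma adjusted p = 0.228). It was called higher without scaling and with spike-in scaling, as was miR-29b-3p, where the median of all tested miRNAs moved up too. No miRNA of the 3 lists had an unadjusted p under 0.05 with the scaling used here.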

How the data were processed

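Per the file headers, Agilent Feature Extraction 10.10.1.1 produced linear spot intensities after removing a fitted spatial background surface; arrays were not normalized to each other. The deposited series table holds intensities too: on every array 15095 of 15095 entries matched the total probe signal of the scanner files (tolerance 1e-04), which makes them linear and uncentred, with array medians from -1.18 to 0.307 on IL-8 and from -1.35 to -0.529 on control arrays. Flags (such as well above background, outlier and saturated) came from the same software. No miRNA spot was saturated.

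Spots were averaged per probe without outlier spots. A probe was well above background on an array if over 50% of its spots were. Signals were divided by the array's 75th percentile over 264 probes detected on all arrays, floored at a log2 level of -5.03, and log2 was taken. Probes had to be detected on each of the 3 arrays of either group; their mean gave 167 miRNAs. limma 3.58.1 in R 4.3.3 compared IL-8 with control, Benjamini-Hochberg adjusted over all tested miRNAs. Arm ratios were fitted the same way over 19 hairpins, and single ratios by exact permutation. Fits were tested on simulated data with changes larger than those of the arms, which does not show how they perform on small changes. Folding used RNAfold 2.7.2. Of the 719 miRNAs, 651 were matched to RefSeq by name. Precision is limited by having 3 arrays per group.

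The members and lists were chosen with earlier results of these data known. Named were the 4 members, miRNAs of the same seed (0 found), the 3 tested miRNAs most like each detected member, and the miRNA of smallest p in each list. Alternatives covered scaling, background, probe summary, filter, floor, limma settings, a replicate block and the omission of each array.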

Additional observations from a re-analysis of the deposited data

How the results depend on the processing

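The 3 detected arms were uncalled in each of their 19 alternatives and the arm ratio of miR-199a in its 13, but signs turned. The ratio of miR-214-3p over miR-199a-3p had 12 alternatives, all judged by exact tests. Their p cannot fall under 0.1, so none could call it, and its uncalled state carries no weight. The same limit holds for the exact permutation test among the alternatives of the arm ratio. miR-199a-5p turned to -0.089 with the percentile over all probes, -0.024 with median scaling and -0.065 with the brightest probe. Without scaling and with spike-in scaling, miR-199a-3p stood at 0.21 and 0.18, miR-214-3p at 0.21 and 0.18, miR-145-5p at 0.15 and 0.12, miR-186-5p at 0.21 and 0.19, miR-219a-5p at 0.19 and 0.18, and miR-23a-3p at 0.20 and 0.17, the last also at 0.017 with quantile normalization. miR-106b-5p turned to -0.062 with the percentile over all probes, -0.063 with normexp and -0.0026 with the brightest probe. miR-10b-5p turned to -0.083, -0.023 and -0.023 in the same settings and to -0.018 with median scaling. miR-376b-5p turned to -0.032 with the percentile over all probes and -0.098 with normexp. With the brightest probe the change of the arm ratio was 0.021 and that of the ratio between hairpins 0.021. Leaving out each array in turn gave -0.039 to 0.087 for miR-199a-5p, -0.062 to 0.061 for miR-199a-3p, -0.045 to 0.014 for miR-214-3p, -0.044 to -0.022 for the arm ratio, -0.048 to 0.038 for the ratio between hairpins, -0.020 to 0.10 for miR-106b-5p, -0.035 to 0.012 for miR-186-5p, -0.089 to 0.10 for miR-219a-5p and -0.014 to 0.13 for miR-376b-5p. The count of called miRNAs, 10 (5 higher, 5 lower) as reported, was 0 with the percentile over all probes, 15 (5 higher, 10 lower) with median scaling, 17 (8 and 9) with quantile normalization, 51 (50 and 1) without scaling, 31 (31 and 0) with spike-in scaling, 24 (1 and 23) with normexp and 1 with no filter; it ran from 1 to 29 over the omitted arrays, with 29 without control replicate 3. In the remaining settings it was 8 to 13. Same-numbered arrays deviated together at r = 0.29, 0.33 and 0.086 across miRNAs. IL-8 replicates 1 and 2 correlated best with the control of their own number, and IL-8 replicate 3 with control replicate 2. Whether same-numbered samples are paired cannot be told from these values. With the number as a replicate block limma called 8 miRNAs and none of the arms. miR-26a-5p and miR-29b-3p passed limma only without scaling (adjusted p = 0.0273 and 0.0443) and with spike-in scaling (0.0492 and 0.0295). The cause was not tested. miR-214-5p was below background in both groups, and no change of it was read under any alternative. It entered a fit only with no filter, at the floor on every array.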
